A study of Danio rerio with 48 samples.

Results

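A group of 9 genes for liver plasma proteins of the acute-phase kind was followed through RNA-Seq of zebrafish larvae mutant for members of the SMN complex: the fibrinogen chains *fga*, *fgb* and *fgg*, ceruloplasmin (*cp*), transferrin a (*tfa*), hepcidin (*hamp*), serum amyloid a (*saa*), haptoglobin (*hp*) and *ambp*. They were taken by name, as plasma proteins other than complement, pentraxins and protease inhibitors, and all 9 were found among the 34707 genes of the count tables. Earlier results of these data were known when they were chosen. The SMN complex assembles small nuclear ribonucleoproteins, and the study asked how the mutants of its regeneration genes (*smn1*, *gemin3* and *gemin5*) differ from the mutants of the other genes (*gemin2*, *gemin4*, *gemin6* and *gemin7*). Each group held 3 libraries of whole larvae of the TAB-5 background at 7 dpf, 33 in all. The mutants were homozygous for *smn1* fh229, *gemin3* hg105, *gemin5* hg80, *gemin2* hg108, *gemin4* hg109, *gemin6* hg110 or *gemin7* hg111, and each library was a pool. Wild-type siblings gave 3 control libraries for each of *smn1*, *gemin3* and *gemin5*, whereas the mutants of the other 4 genes shared 3 wild-type libraries, 1 each from the *gemin4*, *gemin6* and *gemin7* families. The *gemin2* mutants thus had no sibling library. By the study's methods, larvae came from a single pair of heterozygous parents and had all, wild type included, been exposed to copper sulfate, which kills lateral line hair cells, days before collection. All groups had also been fin-clipped for genotyping. Nothing states that the 3 libraries of a group came from separate crosses, so p-values measure only the spread between these libraries, which may be technical.

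Acute-phase proteins are made by hepatocytes and secreted into the blood plasma, and their output changes within hours to days of injury or infection. In mammals, interleukin-6 family cytokines acting through the shared receptor gp130 (*il6st*) and STAT3, together with interleukin-1 and C/EBP factors, drive this response. Fibrinogen, haptoglobin, ceruloplasmin, hepcidin and serum amyloid A rise in the mammalian response, while transferrin falls. The proteins meet in clotting and in the handling of iron, copper and free hemoglobin.

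The libraries held 30045993 to 88871247 counts. The mRNA of the mutated gene was below every control library in *gemin2*, *gemin3*, *gemin5* and *gemin7* mutants, at 28.6% to 62.8% of the control mean, and overlapped the control in *smn1*, *gemin4* and *gemin6* mutants, whose labels it does not check. Reads of the *gemin3* mutants and their siblings were 150 nt on another instrument, against 125 nt elsewhere. Liver transcripts were present in every library: 11 hepatocyte markers summed to 10311 to 18743 TPM (transcripts per 1000000, a level corrected for gene length), and *fabp10a*, the liver fatty acid-binding protein, stood at 1255 TPM or more. A pair of libraries stood apart within their groups: replicate 3 of the shared wild type was highest of its group in *saa*, *hp* and *hamp*, and replicate 1 of the *smn1* mutants was lowest of its group in the fibrinogens and *hamp*. In whole larvae, fewer liver cells and less RNA per liver cell cannot be told apart. By edgeR, 0 of the 13 liver markers tested were called in each of the 7 mutants against its control. Of all genes tested, 0% (*gemin6* and *gemin7*) to 5.39% (*gemin2*) were called, so a count of 0 among 13 says little about the liver. The list medians were -0.08 (*gemin7*) to 0.13 (*smn1*) on the log2 scale. In *gemin2* mutants single markers ran from -0.66 (*ahsg2*) to 0.69 (*rbp4*).

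Levels between genes can be compared only per length, so TPM was used for the order of the 9 genes in the 12 wild-type libraries. Transferrin led, at 166 to 633 (median 385) TPM. The fibrinogen chains came next, *fgg* at 99.8 to 205 (median 139), *fga* at 92.7 to 198 (median 120.3) and *fgb* at 76.7 to 168 (median 96.7) TPM. The gene *ambp*, which encodes a precursor cut into a heme-binding lipocalin and the protease inhibitor bikunin, stood at 55.6 to 119.8 (median 81.8) TPM. Hepcidin stood at 27.5 to 111 (median 69.3) and ceruloplasmin at 32.5 to 102 (median 42.5) TPM. From *tfa* down to *cp*, the ranges of neighbours in this order overlapped. At the bottom were *saa*, at 0.63 to 15.4 (median 1.45) TPM, and *hp*, at 0.030 to 4.67 (median 0.66) TPM, both of whose ranges lay below those of all others. For these 2 genes, the 33 libraries held between 1 and 319 counts each, so small differences were not detectable.

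**Figure D1:**
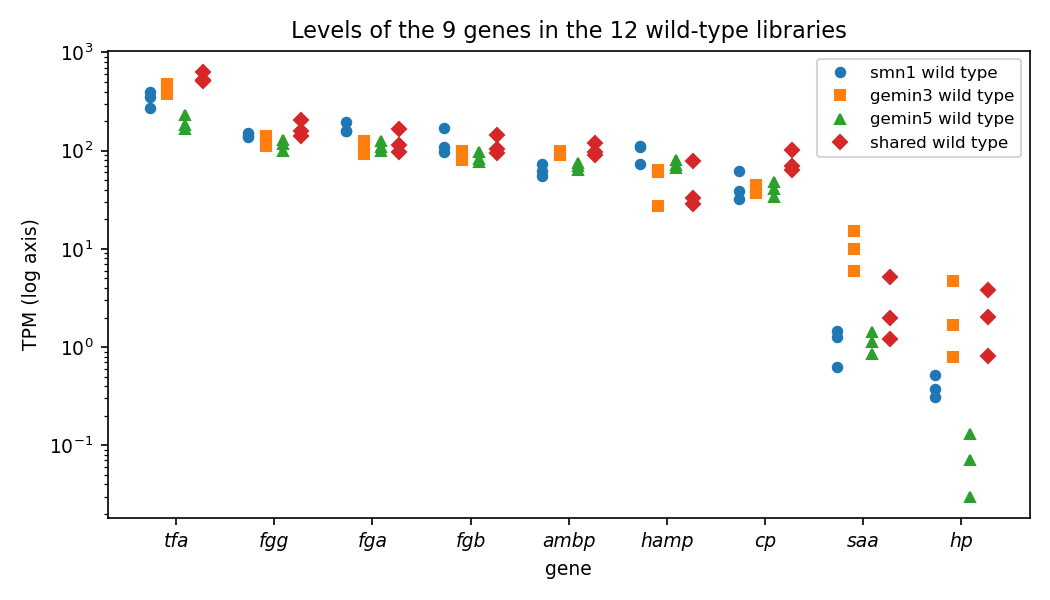
Levels of the 9 genes in the 12 wild-type libraries. The vertical axis is TPM on a log axis, each point is 1 library, and symbols mark the 4 wild-type groups. Transferrin was highest, between 166 and 633 TPM, and *saa* and *hp* lay below the other 7 genes.

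The wild-type groups did not share 1 level. In CPM (counts per 1000000 after TMM normalization), *tfa* measured 330.0, 213 and 261 in *gemin5* siblings and 433, 494 and 343 in *smn1* siblings. It measured 651, 839 and 742 in *gemin3* siblings and 789, 873 and 828 in the shared wild type, with no overlap between these 2 groups and the first 2. The genes *saa* and *hp* were also uneven. *saa* measured 5.09, 3.36 and 1.96 CPM in *gemin3* siblings and 0.298 to 0.47 CPM in *gemin5* siblings. By edgeR's test over the 4 wild-type groups, 6 of the 9 genes differed, namely *tfa* (adjusted p = 1.80e-05), *saa* (3.13e-04), *hp* (9.60e-04), *ambp* (0.0040), *cp* (0.00884) and *fgg* (0.0139). Of all genes tested, 71.2% were called in the same test, so the share among the 9 was near the background. Family, instrument and library batch cannot be told apart in it, so the *smn1*, *gemin3* and *gemin5* mutants are read against their own siblings. The shared wild type holds 1 library from each of the *gemin4*, *gemin6* and *gemin7* families and none from the *gemin2* family, so for *gemin2* mutants genotype and family cannot be told apart.

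Against these controls, ceruloplasmin was the gene of the 9 that moved most clearly and in opposite ways: it rose in *gemin3* and *gemin5* mutants and fell to 26.1% of the control in *gemin2* mutants. Transferrin and haptoglobin fell in *gemin2* mutants too. The fibrinogen chains and *ambp* lay above the siblings in every *gemin3* and *gemin5* mutant library. In *gemin4*, *gemin6* and *gemin7* mutants none of the 9 genes was called, where 0.0173%, 0% and 0% of all genes tested were.

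**Figure D2:**
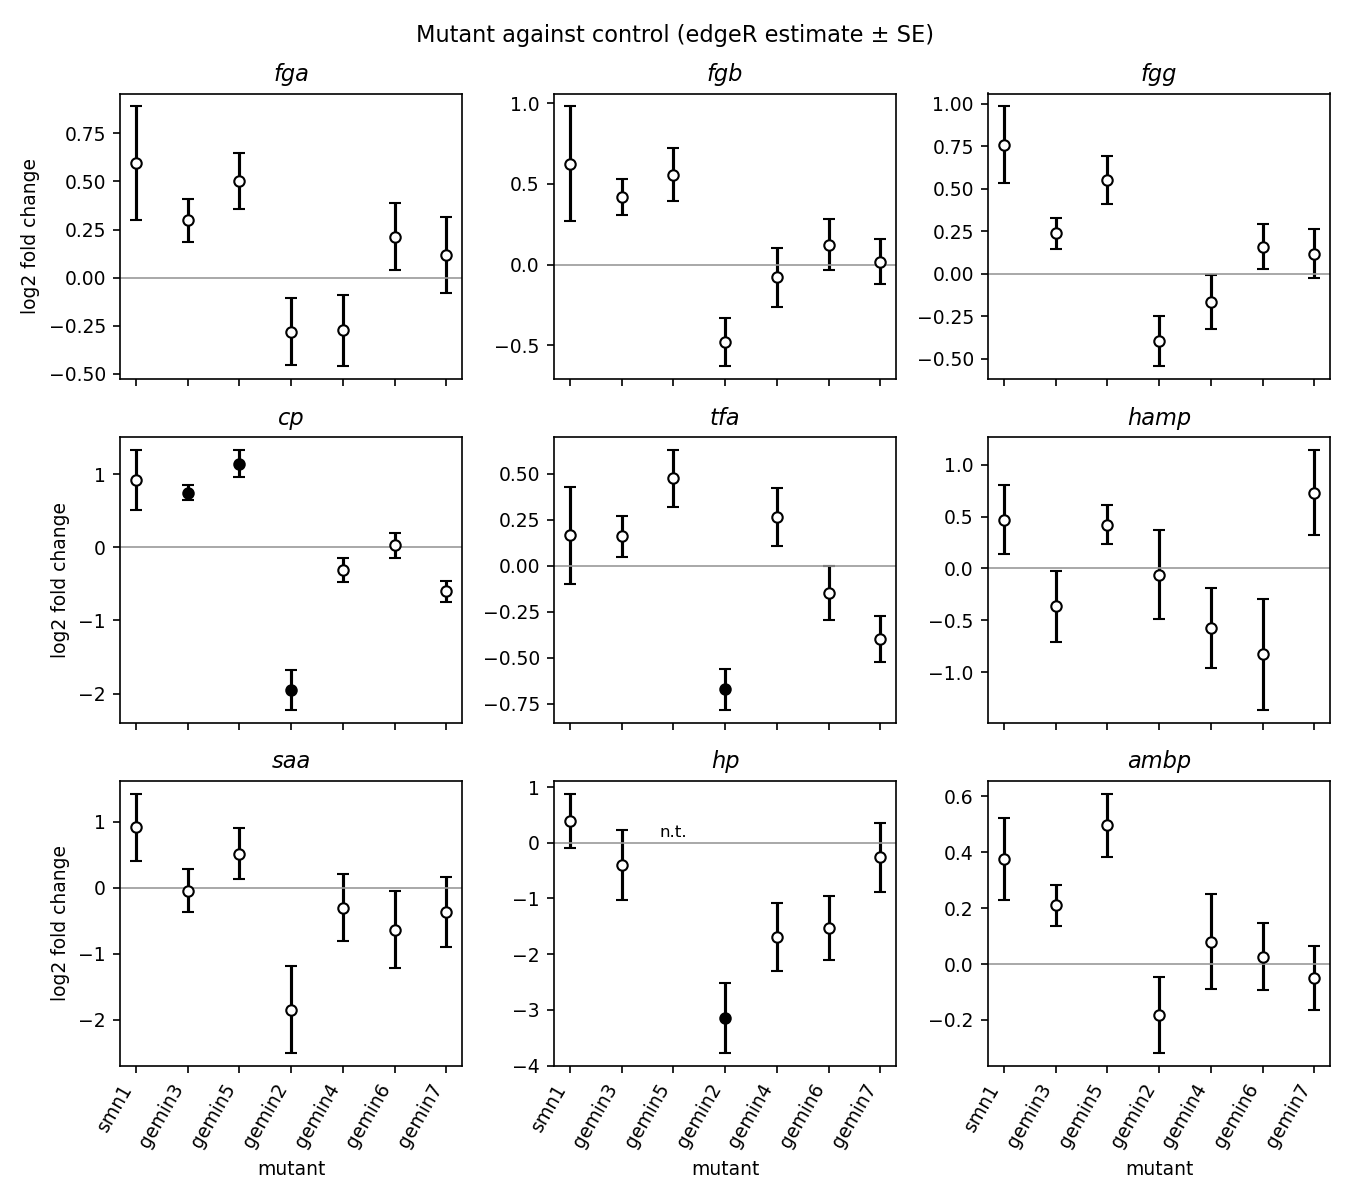
Log2 fold change of each gene in each mutant against its control, as the edgeR estimate with its standard error (SE). Filled points passed an adjusted p of 0.05, open points did not, each panel has its own vertical scale, and n.t. marks *hp* in *gemin5* mutants, left out by the filter on low counts. Filled points are *cp* in *gemin3*, *gemin5* and *gemin2* mutants and *tfa* and *hp* in *gemin2* mutants.

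Ceruloplasmin is a copper-carrying ferroxidase of the plasma, which oxidizes iron so that transferrin can bind it. In *gemin5* mutants *cp* measured 172, 156 and 221 CPM and in their siblings 82.7, 65.6 and 101 CPM. Every mutant library was above every sibling library, and the mean was 2.2 times that of the siblings. The log2 fold change was 1.14 ± 0.18 (SE, adjusted p = 0.043). In *gemin3* mutants the libraries measured 213, 179 and 202 CPM against 119, 107 and 126 CPM in siblings, again with no overlap. The log2 fold change was 0.74 ± 0.10 (SE, adjusted p = 0.0191). In *smn1* mutants *cp* measured 103, 278 and 114 CPM, and in siblings 79.8, 118 and 64.4 CPM. Here replicate 2 of each group was the highest and the groups overlapped, and the log2 fold change of 0.92 ± 0.41 (SE) was not called (adjusted p = 0.863). Without mutant replicate 2 it was 0.31 (adjusted p = 0.93).

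Same-numbered mutant and sibling libraries deviated together in these 3 families, so the replicate number was also fitted as a block. With the replicate block, *cp* was called in all 3: the log2 fold change was 0.81 ± 0.14, adjusted p = 0.0374 in *smn1* mutants, 0.74 ± 0.07, adjusted p = 0.00345 in *gemin3* mutants and 1.15 ± 0.06, adjusted p = 9.56e-06 in *gemin5* mutants. The mutant exceeded its same-numbered sibling in 9 of 9 pairs, by 1.29, 2.36 and 1.76 times in *smn1* mutants, 1.79, 1.67 and 1.6 times in *gemin3* mutants and 2.08, 2.37 and 2.19 times in *gemin5* mutants. In *gemin3* and *gemin5* mutants the direction of every pair follows from the lack of overlap given above and adds nothing to it. The calls without the block were lost on leaving out almost any single library. In *gemin5* mutants the call was lost on leaving out any of 5 of the 6 libraries (all but sibling replicate 3), with an adjusted p of up to 0.188 without sibling replicate 2. In *gemin3* mutants it was also lost on leaving out any of 5 of the 6 (again all but sibling replicate 3), with an adjusted p of up to 0.117 without mutant replicate 3, and it was 0.405 with all 33 libraries in 1 fit. In these alternatives the log2 fold change remained at 0.68 or more.

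In *gemin2* mutants *cp* measured 54.7, 39.8 and 24.6 CPM, against 127, 189 and 141 CPM in the shared wild type. Every mutant library lay under all wild-type libraries, and the log2 fold change was -1.94 ± 0.27 (SE, adjusted p = 0.00736). Leaving out mutant replicate 2 gave an adjusted p of 0.050 and a log2 fold change of -1.96. In *gemin7* mutants *cp* measured 97.6, 103 and 102 CPM, all below the same wild-type libraries, but its log2 fold change of -0.60 ± 0.15 (SE) was not called (adjusted p = 0.563). In *gemin4* and *gemin6* mutants, at 110.5, 115 and 140.2 and 172, 162 and 133 CPM, the libraries overlapped the control. These 4 comparisons share their control libraries.

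**Figure D3:**
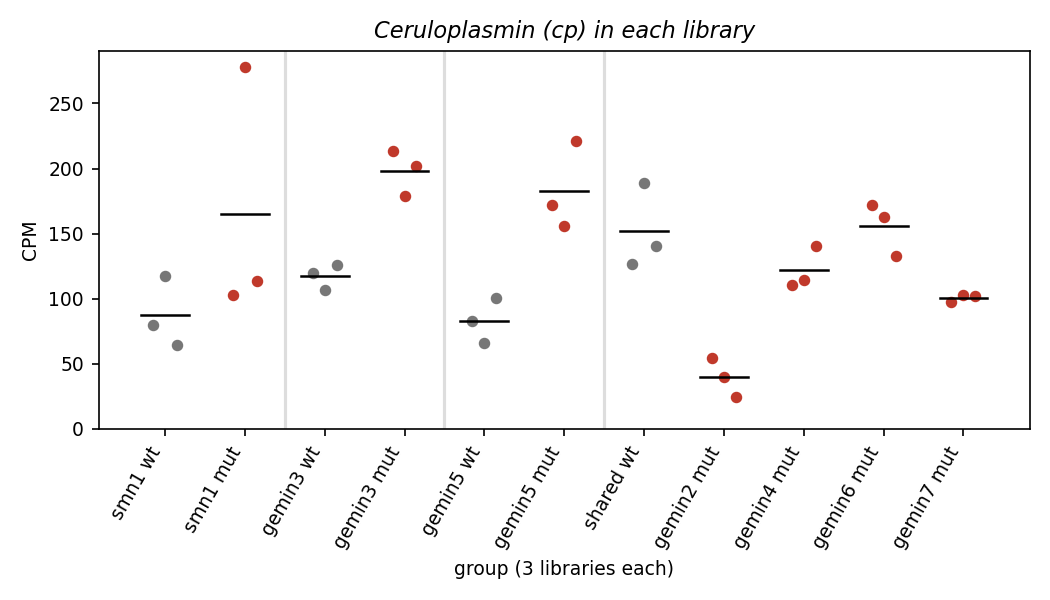
Ceruloplasmin (*cp*) in each library. The vertical axis is CPM, each point is 1 library (grey, wild type; red, mutant), horizontal bars are group means and vertical lines separate each family from the next. All *gemin3* and *gemin5* mutant libraries lay above their siblings, and the *gemin2* mutants, between 24.6 and 54.7 CPM, held the lowest values of all 33 libraries.

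Within a library, the level of *cp* was also set against those of *fgb* and *tfa*. The TPM ratio of *cp* to *fgb* was 0.675 to 0.806 in *gemin5* mutants against 0.44 to 0.502 in siblings, and 0.522 to 0.59 in *gemin3* mutants against 0.447 to 0.469 in siblings. In *gemin2* mutants it was 0.148 to 0.351 against 0.665 to 0.705 in the shared wild type. None of these pairs of ranges overlapped. The ratio also lay below the shared wild type without overlap in *gemin4* (0.581 to 0.592), *gemin6* (0.571 to 0.655) and *gemin7* (0.391 to 0.509) mutants, and in *smn1* mutants (0.243 to 0.549) it overlapped that of their siblings (0.30 to 0.402). The TPM ratio of *cp* to *tfa* lay above the siblings without overlap in *smn1* (0.158 to 0.258 against 0.11 to 0.156), *gemin3* (0.134 to 0.156 against 0.0785 to 0.108) and *gemin5* mutants (0.318 to 0.36 against 0.177 to 0.262). It lay below the shared wild type (0.124 to 0.16) without overlap in *gemin2* (0.0384 to 0.0711) and *gemin4* mutants (0.086 to 0.104) and overlapped it in *gemin6* and *gemin7* mutants. A ratio shows unequal change of the 2 genes, and it was not tested further.

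Fibrinogen is built from 3 chains, encoded by *fga*, *fgb* and *fgg*, and is cut by thrombin into the fibrin of clots. In *gemin5* mutants the 3 genes stood at 141%, 147% and 146% of the sibling mean. *fgg* measured 181, 154 and 201 CPM in these mutants and 129, 101 and 137 CPM in siblings. *fgb* measured 155, 115 and 171 against 98.8, 86.3 and 114 CPM, and *fga* 258, 202 and 285 against 178, 153 and 196 CPM. No chain overlapped between the groups. By edgeR without the block none was called, with log2 fold changes (± SE) of 0.50 ± 0.14 for *fga* (adjusted p = 0.223), 0.56 ± 0.16 for *fgb* (0.229) and 0.55 ± 0.14 for *fgg* (0.16). With the replicate block all 3 rose, with adjusted p of 6.77e-04, 7.56e-04 and 3.55e-04. DESeq2, fitted without the block, called more genes in these mutants than edgeR did, a chain or more among them. The ratio of mutant to same-numbered sibling lay between 1.32 and 1.57 over the 3 chains and 3 pairs.

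In *gemin3* mutants the chains moved less, to 124% (*fga*), 134% (*fgb*) and 118% (*fgg*) of the siblings, again with no overlap. *fgb* measured 174, 149 and 180.5 CPM in mutants and 125, 112 and 138 CPM in siblings. Its log2 fold change of 0.42 ± 0.11 (SE) was not called by edgeR without the block (adjusted p = 0.198) and was called with it (0.0272). DESeq2, fitted without a block, also called *fgb*. The other chains were called in neither fit. In *smn1* mutants the libraries split: *fga* measured 216, 478 and 475 CPM, *fgb* 113, 281 and 255 CPM and *fgg* 157, 259 and 310.5 CPM. Replicate 1 was at the level of the siblings (227, 306 and 242 CPM for *fga*), and replicates 2 and 3 held the highest values of *fga* in all 33 libraries. Only *fgg* did not overlap with the siblings (141, 149 and 140.1 CPM), at a log2 fold change of 0.76 ± 0.23 (SE, adjusted p = 0.623), and without mutant replicate 1 its adjusted p was 0.0429.

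In *gemin2* mutants *fgb* measured 90.1, 106 and 105 CPM and *fgg* 126, 134 and 155 CPM, below the shared wild type at 119, 168 and 132 and 155, 210.2 and 181 CPM without overlap, and *fga* overlapped it. None was called in the main edgeR fit (log2 fold changes ± SE of -0.28 ± 0.17, -0.48 ± 0.15 and -0.40 ± 0.15 for *fga*, *fgb* and *fgg*, adjusted p = 0.407, 0.113 and 0.169). Over the 11 alternative fits the adjusted p of *fgb* ranged from 0.0424 to 0.269. In *gemin4*, *gemin6* and *gemin7* mutants the log2 fold changes of the chains lay between -0.27 and 0.21, and each chain overlapped the control.

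**Figure D4:**
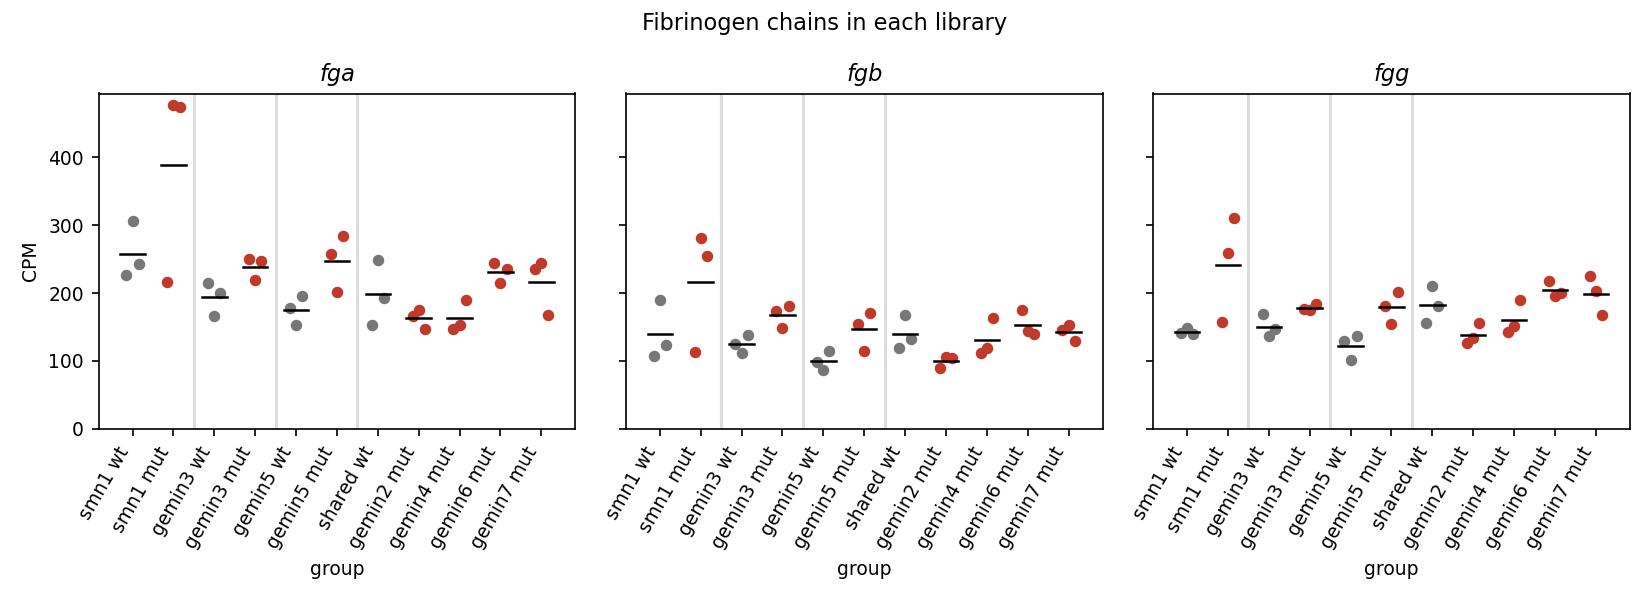
The fibrinogen genes *fga*, *fgb* and *fgg* in each library. The vertical axis is CPM, each point is 1 library (grey, wild type; red, mutant) and bars are group means. Replicate 1 of the *smn1* mutants lay apart from replicates 2 and 3 in all 3 panels, and the *gemin3* and *gemin5* mutants lay above their siblings.

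The proportions of the chains also varied between libraries. The TPM ratio of *fga* to *fgb* ranged from 0.92 to 1.62 and that of *fgg* to *fgb* from 0.896 to 1.77 over the 33 libraries, while *fgb* itself ranged from 71.6 to 262 TPM. Of the 7 mutants, only *gemin4* mutants had a range of the *fga* to *fgb* ratio (0.92 to 1.01) that did not overlap the control (1.03 to 1.14), and for *fgg* to *fgb* none did.

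Transferrin carries iron in the plasma. In *gemin2* mutants *tfa* measured 555, 520.4 and 493 CPM, below all of the shared wild-type libraries at 789, 873 and 828 CPM, a log2 fold change of -0.67 ± 0.11 (SE, adjusted p = 0.014). Without mutant replicate 2 the adjusted p was 0.0784, at a log2 fold change of -0.68. In *gemin7* mutants *tfa* measured 746, 557 and 597 CPM, below the same libraries, and was not called (-0.40 ± 0.12 SE, adjusted p = 0.563). In *gemin5* mutants it measured 372, 339 and 406 CPM, above all sibling libraries (330.0, 213 and 261 CPM). Its log2 fold change there was 0.48 ± 0.15 (SE, adjusted p = 0.277), and with the replicate block 0.49 ± 0.09, adjusted p = 0.00995. In *smn1*, *gemin3*, *gemin4* and *gemin6* mutants *tfa* overlapped the control, at log2 fold changes of -0.15 (*gemin6*) to 0.27 (*gemin4*).

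Hepcidin is the hormone that has the iron exporter ferroportin degraded. By edgeR without the block it was called in no mutant. In *gemin6* mutants *hamp* measured 13, 3.95 and 13.8 CPM, in *gemin4* mutants 9.79, 10.7 and 15.5 CPM and in *gemin7* mutants 25.5, 42.5 and 21.8 CPM. The shared wild type, at 11, 11.8 and 30.7 CPM, overlapped all of them, and its replicate 3 stood far above replicates 1 and 2. In *gemin2* mutants *hamp* measured 24.3, 17.3 and 10.3 CPM, overlapping the same wild-type libraries. In *smn1* mutants it measured 24.9, 55.6 and 63.2 CPM against 25.8, 38.8 and 39.1 CPM in siblings (log2 fold change 0.47 ± 0.34 SE, adjusted p = 0.956), where mutant replicate 1 was again the lowest of its group. In *gemin3* mutants it measured 9.48, 19 and 14.7 CPM against 22, 10.1 and 23.3 CPM, with overlap and no call. In *gemin5* mutants *hamp* measured 44.5, 39.1 and 26.1 CPM against 31.6, 25.3 and 25.1 CPM in siblings, and with the replicate block its log2 fold change was 0.40 ± 0.10, adjusted p = 0.0392 (without it 0.42 ± 0.19 SE, adjusted p = 0.456).

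Haptoglobin binds hemoglobin freed from red blood cells. In *gemin2* mutants *hp* had 5, 7 and 14 counts (0.153, 0.191 and 0.338 CPM) and in the shared wild type 31, 60 and 228 counts (0.836, 1.47 and 3.82 CPM). The groups did not overlap, and *hp* fell with a log2 fold change of -3.15 ± 0.63 (SE, adjusted p = 0.0274). The highest control was replicate 3, without which the log2 fold change was -2.31 (adjusted p = 0.0365). The call was lost without any 1 of the 3 mutant libraries, at an adjusted p of 0.0645 to 0.117. In *gemin5* mutants *hp* had 19, 8 and 25 counts against 2, 1 and 4 in siblings, without overlap. These counts fell under the filter, and in the fit without a filter the log2 fold change was 2.76 ± 0.65 (SE, adjusted p = 0.139). In *gemin4* and *gemin6* mutants the log2 fold changes were -1.69 ± 0.61 and -1.53 ± 0.57 (SE), with overlap and no call (adjusted p = 0.842 and 0.991).

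Serum amyloid A is an apolipoprotein of the acute-phase response in mammals. It was called in no mutant, and its libraries overlapped the control in all 7. In *gemin2* mutants *saa* had 9, 4 and 19 counts (0.276, 0.109 and 0.458 CPM) against 16, 27 and 114 counts (0.432, 0.659 and 1.91 CPM) in the shared wild type, where replicate 3 was the highest, as for *hp* and *hamp*. The log2 fold change of -1.84 ± 0.66 (SE) had an adjusted p of 0.156, and of 0.0275 with all 33 libraries in 1 fit. In *smn1* mutants *saa* had 12, 34 and 22 counts against 7, 15 and 18 in siblings (log2 fold change 0.91 ± 0.51 SE, adjusted p = 0.926).

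The protein of *ambp* is split into parts that bind heme and inhibit proteases. The gene measured 78.7, 73.8 and 83.3 CPM in *gemin5* mutants against 62.9, 47.3 and 57.2 CPM in siblings, without overlap. Its log2 fold change was 0.50 ± 0.11 (SE, adjusted p = 0.116), and 0.50 ± 0.07, adjusted p = 0.0024 with the replicate block. In *gemin3* mutants *ambp* measured 80.7, 84.8 and 83.4 CPM against 67.3, 72.6 and 74 CPM, also without overlap, and was called in neither fit. In *smn1* mutants the values were 75.1, 71.5 and 52.9 CPM against 56, 46 and 51.8 CPM, with overlap between the groups. In the other 4 mutants its log2 fold changes lay between -0.18 and 0.08, the narrowest spread of the 9 genes there.

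**Figure D5:**
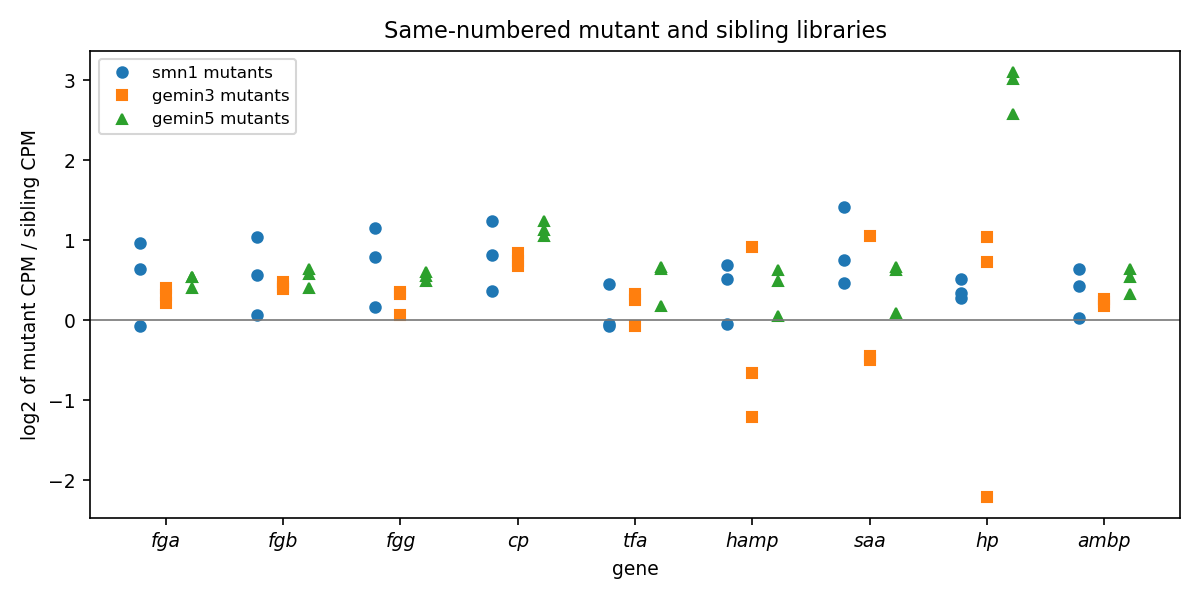
Ratio of each *smn1*, *gemin3* and *gemin5* mutant library to the sibling library of the same number, for each gene. The vertical axis is the log2 of the ratio of CPM, and each point is 1 pair. The genes *cp*, *fgb*, *fgg* and *ambp* lay above 0 in 9 of 9 pairs, *fga* and *hp* in 8, *saa* in 7 and *hamp* and *tfa* in 6. Where 2 groups did not overlap, the direction of their pairs was fixed by that. Pairs were not counted over all genes.

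Counted over the 9 genes, edgeR without the block called 1 in *gemin3* mutants and 1 in *gemin5* mutants. The gene was *cp*, higher in both, where 0.978% and 0.907% of all genes tested were called. With the replicate block the count was 2 in *gemin3* mutants (*cp* and *fgb*) and 7 of the 8 tested in *gemin5* mutants (all but *saa*), against 1.98% and 7.52% of all genes. The libraries of the 2 groups did not overlap for 5 of the 9 genes in *gemin3* mutants and, among the 8 tested, for 6 in *gemin5* mutants, all higher. Of all genes tested 19% and 18.3% did not overlap in either direction. The median log2 fold change of the tested genes was 0.21 and 0.51, with a median of all genes within 0.01 of 0. In *smn1* mutants all 9 estimates were above 0, with a median of 0.59. None was called by edgeR there (0.0921% of all genes were), 2 had an unadjusted p below 0.05 (5.93% of all genes did) and DESeq2 called 0. With the replicate block 1 was called (*cp*), where 1.54% of all genes were. Only *fgg* did not overlap, where 12% of all genes did not.

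In *gemin2* mutants all 9 estimates were below 0, with a median of -0.48, and 3 genes were called (*cp*, *tfa* and *hp*), where 5.39% of all genes tested were. The count of 3 became 0 without mutant replicate 2. In all, 5 genes lay wholly below the control, and 27.5% of all genes did not overlap in either direction. In *gemin4*, *gemin6* and *gemin7* mutants, edgeR and DESeq2 each called 0 of the 9. At an unadjusted p below 0.05 edgeR had 1, 1 and 2, against 5.68%, 3.69% and 8.23% of all genes. Calls over all genes were 0.0173%, 0% and 0% by edgeR, so these mutants had few calls among genes of any kind. For the 2 mutants at 0, edgeR had 855 and 1908 genes at an unadjusted p below 0.05, and DESeq2 called 22 and 59. Genes that did not overlap were 11.5%, 8.63% and 13.8% of all genes in the mutants of *gemin4*, *gemin6* and *gemin7*, and numbered 0, 0 and 2 (*cp* and *tfa*) of the 9.

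The study's central comparison set the regeneration mutants against the others. It was fitted over all 33 libraries as the mean log2 fold change of *smn1*, *gemin3* and *gemin5* mutants minus that of *gemin2*, *gemin4*, *gemin6* and *gemin7* mutants. Ceruloplasmin was higher in the regeneration mutants, relative to each control, by 1.64 ± 0.27 (SE, adjusted p = 0.00208). It was the 1 gene of the 9 called, where 0.538% of all genes tested were. All 9 estimates were above 0, from 0.35 (*hamp*) to 2.57 (*hp*). The adjusted p was 0.0862 for *hp*, 0.148 for *fgg* and 0.263 or more for the other 6. Without the *gemin2* mutants the difference for *cp* was 1.23 ± 0.27 (SE, adjusted p = 0.046). Without the libraries numbered 2 in every group it was 1.35 ± 0.24 (adjusted p = 0.0563), and no gene of the 9 was called.

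The *gemin2* mutants were also set directly against *gemin4*, *gemin6* and *gemin7* mutants, which leaves out the shared control. This contrast compares levels between families and holds no wild-type library. Genotype and family cannot be told apart in it, here or where it is used below. In this comparison 6 of the 9 genes were lower in *gemin2* mutants, and 13.6% of all genes tested were called. They were *cp* (-1.65 ± 0.20 SE on the log2 scale, adjusted p = 9.12e-05), *hp* (-1.99 ± 0.55, 0.027), *saa* (-1.42 ± 0.40, 0.0307), *tfa* (-0.58 ± 0.15, 0.0164), *fgb* (-0.50 ± 0.13, 0.0221) and *fgg* (-0.44 ± 0.13, 0.0341). The genes *fga*, *ambp* and *hamp* were not called. Without *gemin2* mutant replicate 2 only *cp* was called (log2 difference -1.65, adjusted p = 0.00133), and without replicate 1 only *cp* and *tfa*.

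Genes upstream of the acute-phase response were examined from a list of cytokines, receptors and transcription factors, of which 17 of 21 were matched. This list and those that follow were chosen with earlier results of these data known. Their counts of calls are not independent of those results. In *gemin3* mutants 3 of the 15 tested rose and none fell, where 0.978% of all genes were called. These were *il11b* (4.43 ± 0.28, adjusted p = 8.00e-04) and *il11a* (1.37 ± 0.23, adjusted p = 0.0433), which encode interleukin-11 cytokines of the interleukin-6 family, and *il6st* (0.58 ± 0.09, adjusted p = 0.0251), the shared receptor of that family. Values are log2 fold changes ± SE. In *gemin5* mutants *il6st* rose (0.68 ± 0.08, adjusted p = 0.0169), 1 of 15, against 0.907% of all genes. In *smn1* mutants 0 of 15 were called by edgeR, with *il6st* at 0.33 and *il11b* at 3.09 (adjusted p = 0.957 and 0.268). The list's median log2 fold change was 0.59 in *gemin5* mutants, 0.33 in *smn1* mutants and 0.20 in *gemin3* mutants, against medians of all genes near 0. The gene *stat3*, the signal transducer downstream of *il6st*, stood at 0.44, 0.58 and 0.75 and was called in none. In *gemin2* mutants *cebpd*, a C/EBP transcription factor, rose (0.56 ± 0.11, adjusted p = 0.0287), 1 of 12 tested against 5.39% of all genes. The receptor genes *il6st* and *il6r* and the cytokine genes *il1b* and *tnfb* stood at -0.29, -0.55, -1.51 and -1.29 without a call. The receptor gene *lifra* stood the other way, at 0.42 ± 0.11 (adjusted p = 0.0595), and the list's median in these mutants was -0.13. In the regeneration contrast *il11b* was higher (5.43 ± 0.71, adjusted p = 4.35e-04), 1 of 15 against 0.538% of all genes. The low-count filter left *il11b* out in *gemin2*, *gemin4* and *gemin7* mutants, and in *gemin6* mutants it stood at -1.17 ± 1.14 (SE). The size of this difference thus rests in part on very low counts. Against *gemin4*, *gemin6* and *gemin7* mutants, *il6st* (-0.44 ± 0.12, adjusted p = 0.0288) and *tnfb*, a tumor necrosis factor (-1.07 ± 0.33, adjusted p = 0.049), were lower in *gemin2* mutants, 2 of 13, where 13.6% of all genes were called.

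Among partners of fibrinogen in clotting (11 of 15 matched, 10 tested), prothrombin (*f2*), which yields thrombin, stood at 0.57, 0.35 and 0.73 in *smn1*, *gemin3* and *gemin5* mutants and at -0.61 in *gemin2* mutants without a call. Against *gemin4*, *gemin6* and *gemin7* mutants, 4 of 10 were lower in *gemin2* mutants, where 13.6% of all genes were called in either direction, with *f2* (-0.57 ± 0.12, adjusted p = 0.00707) and *serpinf2b*, the plasmin inhibitor (-0.80 ± 0.15, adjusted p = 0.00227), among them. The partners in iron and copper handling (12 of 17 matched) held 1 call against a control, *atp7a*, a copper-transporting ATPase, which rose in *gemin2* mutants (0.49 ± 0.10, adjusted p = 0.0341), 1 of 11 tested against 5.39% of all genes. In the same mutants *atp7b*, which in mammals loads copper onto ceruloplasmin in the liver, stood at -0.52 without a call (adjusted p = 0.263). Against *gemin4*, *gemin6* and *gemin7* mutants, *atp7a* and *heph*, a membrane-bound relative of ceruloplasmin, were higher in *gemin2* mutants (0.48 and 1.30, adjusted p = 0.00221 and 0.0325) and the ferrireductase gene *steap3* was lower (-1.28, 0.0050), 3 of 12 against the same 13.6%.

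Markers of other cells also differed in some of the mutants. Neutrophil markers (3 of 4 matched: *lyz*, *mmp13a* and *npsn*) summed to 35.7 to 44 TPM in *gemin2* mutants against 83.4 to 126 in the shared wild type, and *lyz* and *mmp13a* fell. In *gemin4* mutants the sums, 61.8 to 71.4 TPM, also lay below the shared wild type, with no neutrophil marker called. Those of *gemin6* and *gemin7* mutants overlapped it. The neutrophil markers summed to 60.2 to 84.1 against 132 to 167 TPM in *smn1* mutants, where *lyz* fell, and to 68.5 to 101 against 105 to 156 TPM in *gemin3* mutants. In *gemin5* mutants the sums were 63.4 to 96.2 against 91.9 to 133 TPM, with overlap, and *mmp13a* rose (0.67). There *lyz* and *npsn* stood the other way, at -1.45 and -0.89, without a call (edgeR, adjusted p = 0.19 and 0.0526). Macrophage markers (3 of 5) summed to 35.2 to 40.3 against 50.2 to 62.9 TPM in *gemin2* mutants, where *ctss2.2* fell. The sum rests mainly on *ctss2.2*, with a median of 34.0 TPM over the 33 libraries against 6.98 for *marco* and 9.67 for *csf1ra*. In *gemin2* mutants *marco* stood at -1.01 and *csf1ra* the other way, at 0.50 (edgeR, adjusted p = 0.0541 and 0.119). In *smn1*, *gemin3* and *gemin5* mutants no macrophage marker was called, with list medians of 0.24, 0.55 and 0.39. Of the digestive markers, *ela3l* of the exocrine pancreas (1 of 4 tested) fell in *gemin5* mutants, where 0.907% of all genes were called. In *gemin2* mutants *ela2* of the pancreas (1 of 4) and *fabp6* of the ileum (1 of 5 enterocyte markers) rose, against 5.39% of all genes. Of the other enterocyte markers there, *apoa4b.1* stood at 0.45 and *fabp2*, *vil1* and *cdh17* at -0.04, -0.27 and -0.33, none called. The erythroid gene *hbaa1* was near 0 TPM throughout, at most 0.46, and no erythroid marker was called in any mutant against its control. The erythroid markers (3 of 6) summed to 16.8 to 22.7 TPM in *gemin2* mutants against 29.4 to 36.5 in the shared wild type, without overlap, and *alas2*, the erythroid enzyme that opens heme synthesis, was lower in *gemin2* mutants than in *gemin4*, *gemin6* and *gemin7* mutants (-0.95 ± 0.17, adjusted p = 0.00173). In the same contrast all 3 neutrophil markers and the macrophage markers *marco* and *ctss2.2* were lower and the macrophage marker *csf1ra* was higher. Of the 13 liver markers, *rbp4* (0.57, edgeR, adjusted p = 0.0144) and *hnf4a* (0.63, 0.0331) were higher in it. The liver marker *f2* was lower (-0.57, 0.00707), where 13.6% of all genes were called. The hepatocyte markers summed to 13503 to 14558 TPM in *gemin2* mutants and 14094 to 15888 in the shared wild type, and to 11461 to 12779.5 and 10682 to 12467 TPM in *gemin5* mutants and siblings. The part of these markers in the results for *cp*, *tfa* and *hp* was not tested.

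As a description of how the 9 genes vary together, Pearson's r of log2(CPM + 1) was taken over the 33 libraries, which share families and larval liver content, and again over deviations from group means. It was 0.87 and 0.91 for *fga* with *fgb*, 0.86 and 0.83 for *fgb* with *fgg* and 0.76 and 0.66 for *saa* with *hp*. For *cp* with *tfa* it was 0.37 and 0.66, and for *tfa* with *hamp* -0.60 and -0.14. The genes most like each one by the same r over 33 libraries, among 20438 genes with a mean of at least 1 CPM, follow, each with that r and then the r over deviations from group means. For *fga* they were *fgb* (0.87, 0.91), *CERS2* (0.82, 0.55) and *cfhl4* (0.80, 0.73), for *fgb* *fga* (0.87, 0.91), *fgg* (0.86, 0.83) and *cfhl4* (0.82, 0.65) and for *fgg* *fgb* (0.86, 0.83), *cfb* (0.81, 0.84) and *c4b* (0.79, 0.68). For *cp* they were *c4b* (0.80, 0.40), ENSDARG00000105065 (0.80, 0.55) and *cfb* (0.80, 0.61), and for *ambp* *c8a* (0.88, 0.82), *c8b* (0.87, 0.63) and si:ch211-288g17.4 (0.85, 0.55). Of these, *c4b*, *cfb*, *c8a* and *c8b* encode complement proteins. For *tfa* they were *ALLC* (0.91, 0.65), *CDC42* (0.90, 0.24) and *HADH* (0.89, 0.67) and for *hamp* *tifa* (0.86, 0.64), *PFKFB3* (0.84, 0.81) and *SNX10* (0.83, 0.57). For *hp* they were *SLC2A6* (0.84, 0.56), *DRAM1* (0.84, 0.60) and *cybb* (0.80, 0.47), of which *cybb* encodes a subunit of the phagocyte NADPH oxidase, and for *saa* si:ch211-153b23.5 (0.92, 0.60), *sult5a1* (0.92, 0.64) and *ccl20a.3* (0.91, 0.43).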

How the data were processed

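RNA-Seq of 33 libraries was analysed, and 15 small RNA libraries of the same series were not used here. According to the submitters' processing notes and the methods, the authors trimmed reads with Trimmomatic 0.36, mapped them with STAR to GRCz10 (danRer10) and an Ensembl annotation without pseudogenes, and estimated abundance with RSEM. The deposited values were expected counts, estimates that share out reads with several origins and need not be whole, and TPM, computed by the authors per 1000000 transcripts from the same estimates. Each library's group and number came from its label. The genes were matched by Ensembl identifier through the gene table, except that the identifier of *saa* is listed there as SAA2 and was named from the study's tables. The 9 genes and all gene lists were chosen with earlier results of these data known. A total of 26982 of 34707 identifiers had a symbol.

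Expected counts were rounded to whole numbers. In R 4.3.3, edgeR 4.0.16 was run on the 6 libraries of each comparison with its default low-count filter (filterByExpr), TMM normalization, and a quasi-likelihood fit and test, with p-values adjusted by the Benjamini-Hochberg method across the genes tested and a threshold of 0.05. The contrast of mutant classes used all 33 libraries, that of *gemin2* with *gemin4*, *gemin6* and *gemin7* mutants the 12 mutant libraries concerned, and that of wild-type groups the 12 wild-type libraries. The SE is the absolute log2 fold change over the square root of F. Scripts were tested on simulated counts. All 9 genes and the members of the lists were eligible to be named, and like genes were the 3 of highest Pearson's r. Every pair of libraries of a group differed by more than sampling noise (chi-square per degree of freedom of 9.76 or more).

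Libraries of the same number deviated together in 3 families. The correlation of their deviations from group means was 0.565, 0.693 and 0.661 for numbers 1, 2 and 3 in the *smn1* family, 0.284, 0.27 and 0.523 in the *gemin3* family and 0.447, 0.413 and 0.718 in the *gemin5* family, every one over 0.1, so the numbers were taken as pairs there. It was not over 0.1 throughout for the 4 mutants with the shared control. The alternatives were DESeq2 1.42.0, RLE normalization, no filter, all 33 libraries in 1 fit, the replicate block, leaving out each library, and the single wild-type library of the own family for *gemin4*, *gemin6* and *gemin7* mutants. Which larvae or batches the numbers stand for, and the promoters or sequences of the genes, were not analysed here. Single-gene values of part of the gene lists are not reported here.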

Additional observations from a re-analysis of the deposited data

Results flagged for a closer look

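Values were singled out for a closer look where 2 sets of mutants differed, in their changes against controls or in their levels, by a test of the difference itself. Ceruloplasmin was one, with a log2 fold change higher in the regeneration than in the other mutants by 1.64 (edgeR, adjusted p = 0.00208). A set of 6 genes differed in level between *gemin2* mutants and *gemin4*, *gemin6* and *gemin7* mutants, which are of other families. The log2 differences were -1.65 for *cp*, -1.99 for *hp*, -1.42 for *saa*, -0.58 for *tfa*, -0.50 for *fgb* and -0.44 for *fgg*. Counts of *hp* and *saa* were low throughout. Groups of 3 libraries are too small for a test of single outlying libraries, and none was run.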

How the results depend on the processing

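RLE normalization and no filter left every count of called genes as it was. The count changed with other choices. DESeq2 called 2 of the 9 genes in *gemin3* mutants, 5 in *gemin5* mutants and 2 in the contrast of regeneration with other mutants. One fit of all 33 libraries called 1 in *smn1* mutants (*fgg*) and 0 in *gemin3* mutants. It also called *saa* in *gemin2* mutants (edgeR, adjusted p = 0.0275). For these DESeq2 and all-library counts the share of all genes called is not given here, so they have no background beside them. The replicate block called 7 genes in *gemin5* mutants, 2 in *gemin3* mutants and 1 in *smn1* mutants, and it changed no other count by over 1.5 times. Its value was 0.000517 for *saa* in *gemin3* mutants and 0.0644 for *hamp* in *gemin2* mutants, both of the opposite sign to the main value. The numbers did not pair the libraries of the 4 mutants with the shared control, where correlations of same-numbered deviations lay between -0.275 and 0.378. Leaving out 1 library at a time (1 number in every group for the contrast of regeneration with other mutants), the count ranged over 0 to 1 in *smn1* mutants, 0 to 2 in *gemin3* mutants, 0 to 1 in *gemin5* mutants, 0 to 3 in *gemin2* mutants, 0 to 2 in the contrast of regeneration with other mutants and 1 to 5 in the contrast of *gemin2* with *gemin4*, *gemin6* and *gemin7* mutants. The log2 fold changes whose sign turned had these ranges: *hp* -0.0328 to 0.71 and *tfa* -0.19 to 0.37 in *smn1* mutants, *saa* -0.32 to 0.33 and *hp* -0.89 to 0.54 in *gemin3* mutants, *hamp* -0.37 to 0.59 in *gemin2* mutants, *saa* -0.65 to 0.61, *hamp* -0.83 to 0.0768, *fgb* -0.28 to 0.0505 and *ambp* -0.12 to 0.17 in *gemin4* mutants, *saa* -1.07 to 0.29, *cp* -0.0926 to 0.20 and *ambp* -0.0674 to 0.11 in *gemin6* mutants, *saa* -0.71 to 0.55, *hp* -1.04 to 0.60, *fga* -0.0327 to 0.32, *fgb* -0.0787 to 0.17 and *ambp* -0.14 to 0.0412 in *gemin7* mutants, *hamp* -0.22 to 0.83 in the contrast of regeneration with other mutants and *hamp* -0.15 to 0.43 in the contrast of *gemin2* with *gemin4*, *gemin6* and *gemin7* mutants. None of these genes was called in those comparisons, and the cause of each change was not tested. Against the single wild-type library of the own family, which allows no test, *cp* stood at -0.06, -0.28 and -0.48 on the log2 scale in *gemin4*, *gemin6* and *gemin7* mutants. Depth limits *hp* and *saa* most, with as few as 1 and 4 counts in a library. Groups of 3 pools limit every call.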
